A study of Mus musculus with 4 samples.

Results

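Expression of 55 genes of the lysosome was examined in melanocyte stem cells, the reserve cells that supply pigment cells to growing hair, which had been sorted from mouse skin by FACS. The 55 genes are a list of lysosomal hydrolases, membrane proteins and subunits of the vacuolar proton pump (V-ATPase), taken by gene symbol. All 55 were among the 27933 genes of the count tables, and all 55 were among the 13348 genes that passed a low-count filter (edgeR's filterByExpr, minimum count 10). By role they were 28 hydrolases, 3 hydrolase activators and lipid carriers, 6 membrane proteins and 18 V-ATPase genes. The stressed group (n = 2 libraries) came from mice given RTX and the control group (n = 2 libraries) from mice given saline, and cells of both groups were taken 12 h after injection. This follows each sample's treatment label; the treatment protocol text names an RTX injection for all 4 samples, controls included, and the labels do not settle that conflict. What RTX stands for, and the strain, genotype, sex and age of the mice, are not given in the sources used here. Going by its title, the study deals with overactive sympathetic nerves and the loss of these stem cells. The labels do not say whether replicates were separate animals, so the p-values measure only the spread between libraries, which may be technical.

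Lysosomes are acidic organelles in which soluble hydrolases break down proteins, sugar chains, sulfated matrix and lipids. Membrane proteins seal the compartment and carry products and ions across it, and the V-ATPase pumps protons into it, with a V1 sector that splits ATP and a V0 sector that forms the proton path through the membrane. In pigment cells the melanosome belongs to the same family of organelles and shares several of these proteins. Transcription factors of the MITF, TFEB and TFE3 family bind promoters of many lysosomal genes at the CLEAR motif, a palindromic E-box element.

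Libraries held between 9273652 and 11854280 counts assigned to genes. A count of 3, the limit set for a count of 0, corresponds to between 0.254 and 0.321 CPM (counts scaled by TMM to a common library size), and covers counting error only. Pigment cell markers were present: the summed level of 8 melanocyte markers such as Dct, Tyr and Pmel was 21760 and 20620 CPM in control libraries 1 and 2, and 38760 and 36280 CPM in stressed libraries 1 and 2. Keratinocyte markers were present too. The 10 keratinocyte markers summed to 23270 and 14690 CPM in control cells and to 8729 and 7626 CPM in stressed cells, 0.431 times the control level. Of these, 8 of 10 lay below both controls in both stressed libraries, against 22.9% of all genes tested. The share of counts from mitochondrial genes was 0.906% and 2.07% in control cells and 0.479% and 0.405% in stressed cells. In bulk libraries of sorted cells, a change in the share of contributing cells and a change in RNA per cell cannot be told apart. The part of these marker and library differences in the results on lysosomal genes was not tested.

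Lysosomal genes lay mostly higher in stressed cells. Of the 55, 41 had a higher fitted level and 14 a lower one, with a median log2 fold change of 0.20 (stressed over control), beside a median of -0.01 over all 13348 genes, of which 49.1% were higher. With 1 library left out, between 37 (without control replicate 2) and 44 (without control replicate 1) were higher. Of the 55, 15 changed sign in at least 1 such fit, all of them genes whose groups overlapped. Separated groups leave almost no room for a sign change, so this says nothing about how firm the separated genes are. In 30 of the 55 both stressed libraries lay above both controls, against 21.8% of all genes tested, and in 6 of the 55 both lay below, against 22.9% of all genes tested. The summed level of the 55 genes was 12430 and 11890 CPM in control libraries 1 and 2 and 15450 and 15840 CPM in stressed libraries 1 and 2. The summed ratio of 1.29 may be set beside 1.77 for the melanocyte markers, whose sum is mostly Dct, Pmel and Tyrp1. All 8 of those markers had a higher fitted level, but Sox10 (0.08 ± 0.31) and Mitf (0.21 ± 0.26) overlapped between the groups.

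No lysosomal gene passed edgeR's quasi-likelihood test (two-sided, Benjamini-Hochberg adjusted over all genes, threshold 0.05), and neither did any other gene, so the background rate of calls was 0%, and limma-voom likewise called 0. At an unadjusted edgeR p below 0.05, 17 of the 55 were higher, beside a background of 5.17% (690 genes), and 3 were lower, beside 7.6% (1015 genes). DESeq2, which the submitters' processing notes also name, called 8 of the 55 as higher, beside a background of 1.73% (231 genes), and 2 as lower, beside 2.67% (356 genes). The 8 were the proteases Lgmn and Ctsz, the glycosidases Hexa and Gusb, the tetraspanin Cd63 and the V-ATPase subunits Atp6v0a1, Atp6v0b and Atp6v1b2. The 2 were the V-ATPase isoforms Atp6v0a4 and Atp6v1c2. The number of DESeq2 calls depended on single libraries, for the 55 as for all genes. Without control replicate 2, DESeq2 called 9 of the 55 and 800 genes in all, and without control replicate 1 it called 5 of the 55 and 477 in all. It called 0 of the 55 without stressed replicate 1 (142 genes in all) and 0 without stressed replicate 2 (44 genes in all). The words rose and fell are kept for genes called by DESeq2, each given with its DESeq2 adjusted p. Fold changes are log2 values from the edgeR fit with their standard error (SE), and coordinates are those of mm10. Where a pair of values is given for a group, the first is replicate 1 and the second replicate 2.

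**Figure D1:**
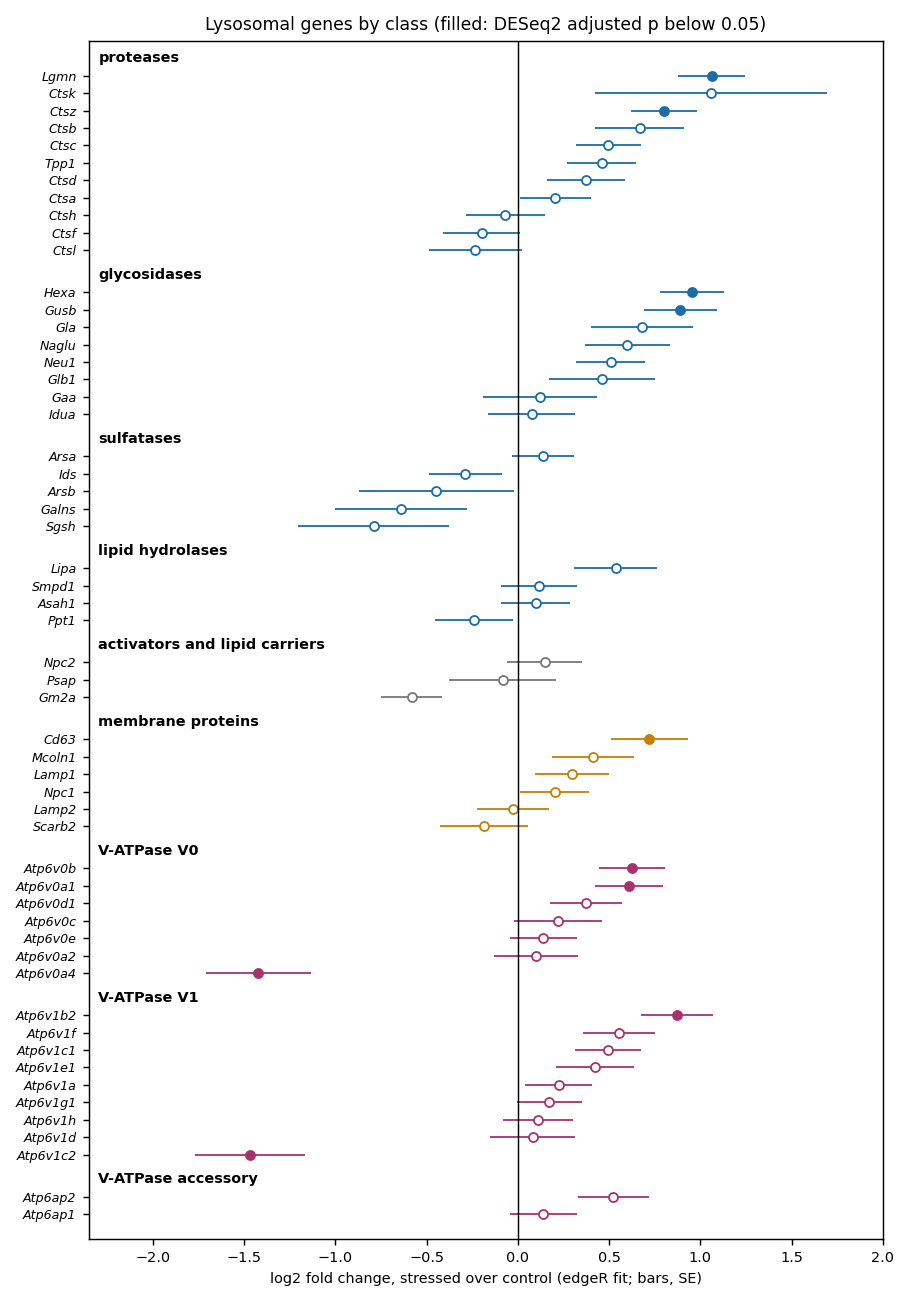
Log2 fold change, stressed over control, of each of the 55 lysosomal genes from the edgeR fit (points) with its SE (bars), grouped by role; filled points are genes called by DESeq2 at an adjusted p below 0.05. All 8 glycosidases lie to the right of 0, 4 of 5 sulfatases lie to the left, and Atp6v0a4 and Atp6v1c2 lie far left of the other V-ATPase genes.

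Promoter sequences were looked at because many of these genes lay on the same side of 0. The RefSeq promoter table (GRCm38.p6, 250 bases before to 50 after each start) held 45 of the 55 genes. The core of the CLEAR motif, searched as TCACGTG on both strands, was present in 15 of the 45, which is 33.3%, against 4.29% of all 27025 genes in the table and 6.97% of the 10038 tested genes in it. The full palindrome TCACGTGA, which includes that core, was present in 7 of the 45, or 15.6%, against 1.13% and 2.16%. Plain CACGTG, contained in both, was found in 37.8% of the 45 genes, 8.09% of all genes and 11.8% of tested genes. The M-box core TCATGTG, which cannot share a match with these, was found in 13.3%, 4.31% and 2.68%. The 55 genes were listed as lysosomal genes, and the CLEAR motif is known from promoters of such genes. These shares use no expression values, so they do not bear on stressed against control cells. The following stretches show matches in capitals, 5′ to 3′ on the gene's strand. They cover the 7 genes with the full palindrome, then Lgmn and Atp6v0b, which rose, then Lamp1 with its 4 matches, and last Sgsh, which lay lower.
Atp6v0d1: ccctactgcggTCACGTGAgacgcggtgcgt
Atp6v0e: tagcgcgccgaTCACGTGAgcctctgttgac
Atp6v1a: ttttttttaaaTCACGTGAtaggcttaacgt
Ctsa: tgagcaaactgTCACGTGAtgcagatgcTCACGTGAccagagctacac
Ctsd: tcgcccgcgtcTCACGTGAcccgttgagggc
Gla: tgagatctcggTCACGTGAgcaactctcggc
Mcoln1: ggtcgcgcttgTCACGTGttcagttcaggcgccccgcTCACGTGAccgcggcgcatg
Lgmn: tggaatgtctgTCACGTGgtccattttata
Atp6v0b: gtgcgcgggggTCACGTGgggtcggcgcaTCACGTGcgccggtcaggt
Lamp1: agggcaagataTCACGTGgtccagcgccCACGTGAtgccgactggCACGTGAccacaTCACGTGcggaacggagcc
Sgsh: ggcctgccgtgCACGTGAccgtggggagcg
These stretches lie at chr8:105566049-105566079 (minus strand) for Atp6v0d1, chr17:26676387-26676417 (plus) for Atp6v0e, chr16:44139372-44139402 (minus) for Atp6v1a, chr2:164833749-164833796 (plus) for Ctsa and chr7:142387907-142387937 (minus) for Ctsd. The others lie at chrX:134601181-134601211 (minus) for Gla, chr8:3500436-3500492 (plus) for Mcoln1, chr12:102439124-102439153 (minus) for Lgmn, chr4:117887330-117887377 (minus) for Atp6v0b, chr8:13159088-13159163 (plus) for Lamp1 and chr11:119355521-119355550 (minus) for Sgsh. The match begins 4 bases before the start in Atp6v0d1, 99 bases before it in Ctsd, 132 bases before it in Atp6v1a and 195 bases before it in Gla, and in Atp6v0e at base 3 of the transcript. Lamp1 carries its first match 62 bases and its last 16 bases before the start, Lgmn 50 bases before an inner start of the gene, and Ctsa has matches on either side of an inner start. The starts of Lgmn and Ctsa, and also those of Ctsd and Atp6v1a, lie within the gene as the files give it, by 721, 900, 211 and 446 bases, so the stretches of these 4 genes lie inside the annotated gene. Not shown are a second full palindrome in Gla, 228 bases before its start, and a second core match in Ctsd, 245 bases before its start. The other genes with the core were Arsa, Gaa, Glb1 and Naglu.

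Of the 15 genes with the TCACGTG core, both stressed libraries lay above both controls in 12 and below both in 1, Sgsh, with a median log2 fold change of 0.37. Over all genes tested the shares were 21.8% above and 22.9% below. Of the 30 genes with a promoter entry and no core match, 14 lay above and 4 below, with a median of 0.14. For plain CACGTG the medians were closer together, 0.30 in the 17 genes with it and 0.18 in the 28 without. Of those 17 genes 12 lay above and 1 below, and of the 28 without it 14 lay above and 4 below. For the M-box core the medians lay the other way, 0.21 in the 6 genes with it and 0.30 in the 39 without, and both stressed libraries lay above both controls in 3 of the 6 and 23 of the 39. In all 7 genes with the full palindrome both stressed libraries lay above both controls, but none of the 7 was called by DESeq2. Of the 8 genes that rose, Lgmn and Atp6v0b hold the core, while the windows of Hexa, Gusb, Ctsz, Cd63 and Atp6v0a1 do not and Atp6v1b2 had no entry. The starts used for Cd63 and Atp6v0a1 lie 426 and 946 bases inside the annotated gene, so their windows do not reach its outer end. The same holds for Scarb2 (1176 bases) and Atp6v1c2 (4629 bases), which also had no core match. The sequence at that end was not searched in these genes. No test was made of the differences between genes with and without a match, and a match is a stretch of letters, not a measured binding site.

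Proteases of the lysosome comprise the cathepsins, legumain and the peptidase Tpp1. Of the 11 proteases, 8 were higher and 3 lower, with a median of 0.46. In all 8 the stressed libraries lay above both controls, against 21.8% of all genes tested. Lgmn, the asparaginyl endopeptidase legumain (chr12:102394084-102439813, minus strand), had the highest log2 fold change of the 55. It stood at 61.8 and 65.4 CPM in control libraries 1 and 2 and at 121 and 144 CPM in stressed libraries 1 and 2. Lgmn thus rose 2.09-fold by mean CPM, by 1.06 ± 0.18 on the log2 scale (edgeR adjusted p 0.127; DESeq2 adjusted p 0.000522). Ctsz, cathepsin Z, a carboxypeptidase (chr2:174427493-174439039, minus strand), stood at 209 and 222 CPM in control cells and 365 and 387 CPM in stressed cells. The replicates of Ctsz were close within each group, and it rose by 0.80 ± 0.18 (edgeR adjusted p 0.174; DESeq2 adjusted p 0.00201).

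Ctsb, cathepsin B, an abundant cysteine protease (chr14:63122462-63145919), lay just outside the DESeq2 threshold. Its level was 987 and 1237 CPM in control cells and 1591 and 1939 CPM in stressed cells, a log2 fold change of 0.67 ± 0.24 (DESeq2 adjusted p 0.0506). The control replicates of Ctsb were themselves apart, and DESeq2 called it without control replicate 2 (adjusted p 0.00269). Of its exon length, 16.2% is shared with Fdft1 on the opposite strand, and counting made no use of strand, so reads from that stretch cannot be assigned to either. Ctsd, the aspartic protease cathepsin D, is the most abundant of the hydrolases per kilobase. It stood at 1246 and 1126 CPM in control cells and 1454 and 1619 CPM in stressed cells, a log2 fold change of 0.37 ± 0.22 that did not pass either test (DESeq2 adjusted p 0.361). Ctsk, cathepsin K, known for collagen breakdown by osteoclasts, had a log2 fold change as large as that of Lgmn but a wide error, 1.06 ± 0.64. Its levels were low and scattered, at 1.93 and 3.64 CPM in control cells and 3.85 and 7.82 CPM in stressed cells, and stressed replicate 1 was barely above control replicate 2.

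Among the remaining proteases, Ctsc, the dipeptidyl peptidase that activates other proteases, was higher by 0.50 ± 0.18 and the tripeptidyl peptidase Tpp1 by 0.46 ± 0.19, each at an unadjusted edgeR p below 0.05 only. Ctsa, a carboxypeptidase that also shields Neu1 and Glb1 in a complex, was higher by 0.20 ± 0.19, and 17.4% of its exon length is shared with opposite-strand genes. The 3 with a lower fitted level were the cysteine proteases Ctsl (-0.23 ± 0.25), Ctsf (-0.20 ± 0.21) and Ctsh (-0.07 ± 0.22), and in each of them the groups overlapped. Ctsl was at 522 and 390 CPM in control cells and 451 and 326 CPM in stressed cells, so its replicates differed within each group more than the groups did. Ctss, cathepsin S, which is typical of antigen-presenting cells and is not one of the 55, had at most 0.182 CPM in any library.

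Glycosidases, which trim sugars from glycoproteins, glycolipids and glycosaminoglycans, were the class with the highest median, 0.55. All 8 had a higher fitted level, although Gaa and Idua turned lower without control replicate 1 or without stressed replicate 2. In 5 of the 8 the stressed libraries lay above both controls, against 21.8% of all genes tested. Hexa, the alpha subunit of beta-hexosaminidase (chr9:59539667-59565105), had replicates that were almost the same within each group. Its level was 155 and 156 CPM in control libraries 1 and 2 and 305 and 297 CPM in stressed libraries 1 and 2. Hexa rose 1.94-fold by mean CPM, by 0.95 ± 0.17 on the log2 scale (edgeR adjusted p 0.137; DESeq2 adjusted p 0.00012). Gusb, beta-glucuronidase (chr5:129989011-130003049, minus strand), was at 42.9 and 52.5 CPM in control cells and 81.5 and 95.5 CPM in stressed cells. Both stressed values of Gusb were well above both controls, and it rose by 0.89 ± 0.20 (edgeR adjusted p 0.175; DESeq2 adjusted p 0.0208), a call that was lost without control replicate 1 (DESeq2 adjusted p 0.197).

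Of the other glycosidases, Gla, Naglu and Neu1 were higher in each stressed library than in either control but passed neither adjusted test. Alpha-galactosidase Gla was at 17.1 and 24.5 CPM in control cells and 31.2 and 35.6 CPM in stressed cells (0.68 ± 0.28). The heparan sulfate enzyme Naglu was at 38.5 and 55.3 CPM in control cells and 75 and 67.3 CPM in stressed cells (0.60 ± 0.23). The sialidase Neu1 was at 73.9 and 69.3 CPM in control cells and 90.6 and 113 CPM in stressed cells (0.51 ± 0.19). In the last 3 the groups overlapped: the beta-galactosidase Glb1 (0.46 ± 0.29), the glycogen-degrading Gaa (0.12 ± 0.31) and the iduronidase Idua (0.07 ± 0.24). Of these 3, Gaa differed most between the controls, with 136 CPM in replicate 1 and 251 CPM in replicate 2.

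Sulfatases, which remove sulfate groups from glycosaminoglycans and sulfolipids, stood on the other side of 0. Of the 5, 4 were lower and 1 was higher, with a median of -0.45, and no sulfatase passed edgeR's or DESeq2's test (0 also at an unadjusted edgeR p below 0.05). Without control replicate 2 the sulfatase median was -0.29, Galns was at -0.29 and Arsb turned to 0.01. Sgsh, the heparan N-sulfatase, was at 11.2 and 8.56 CPM in control cells and 4.79 and 6.64 CPM in stressed cells, a log2 fold change of -0.79 ± 0.41. Galns, which acts on keratan and chondroitin sulfate, was at 10.9 and 16.9 CPM in control cells and 9.39 and 8.46 CPM in stressed cells (-0.64 ± 0.36). Sgsh, Galns and the iduronate sulfatase Ids (-0.29 ± 0.20) were each lower in each stressed library than in either control, against 22.9% of all genes tested. Arsb (-0.45 ± 0.42) overlapped between the groups, and Arsa, which acts on sulfatide, was slightly higher in both stressed libraries (0.14 ± 0.17). Together with Ctsk, Sgsh, Galns and Arsb had the lowest mean levels per kilobase among the hydrolases, and exon length shared with opposite-strand genes was 48.8% for Arsb, 21.6% for Sgsh and 18.8% for Arsa.

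The 4 lipid hydrolases had a median of 0.11, which turned to -0.06 without control replicate 2 and was 0.31 without control replicate 1. Lipa, the acid lipase of cholesteryl esters and triglycerides, stood apart, at 26.4 and 24.9 CPM in control cells and 37.6 and 36.6 CPM in stressed cells (0.54 ± 0.23), and it passed neither test. The ceramidase Asah1 (0.10 ± 0.19), the sphingomyelinase Smpd1 (0.11 ± 0.21) and the palmitoyl thioesterase Ppt1 (-0.24 ± 0.21) overlapped between the groups. Of the 3 activators and carriers, Gm2a alone had groups that did not overlap, and it lay below both controls, as did 22.9% of all genes tested. Gm2a, the activator that presents GM2 ganglioside to the hexosaminidase containing the Hexa subunit, was at 110 and 104 CPM in control cells and 71.9 and 70.7 CPM in stressed cells. Both stressed values of Gm2a were below both controls, with a log2 fold change of -0.58 ± 0.17 that passed an unadjusted edgeR p below 0.05 but not the adjusted test of edgeR (0.247) or DESeq2 (0.147). Psap, the precursor of the saposin activators, was among the abundant members and scattered within both groups, at 833 and 549 CPM in control cells and 768 and 538 CPM in stressed cells. The cholesterol carrier Npc2 also overlapped between the groups (0.15 ± 0.20).

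**Figure D2:**
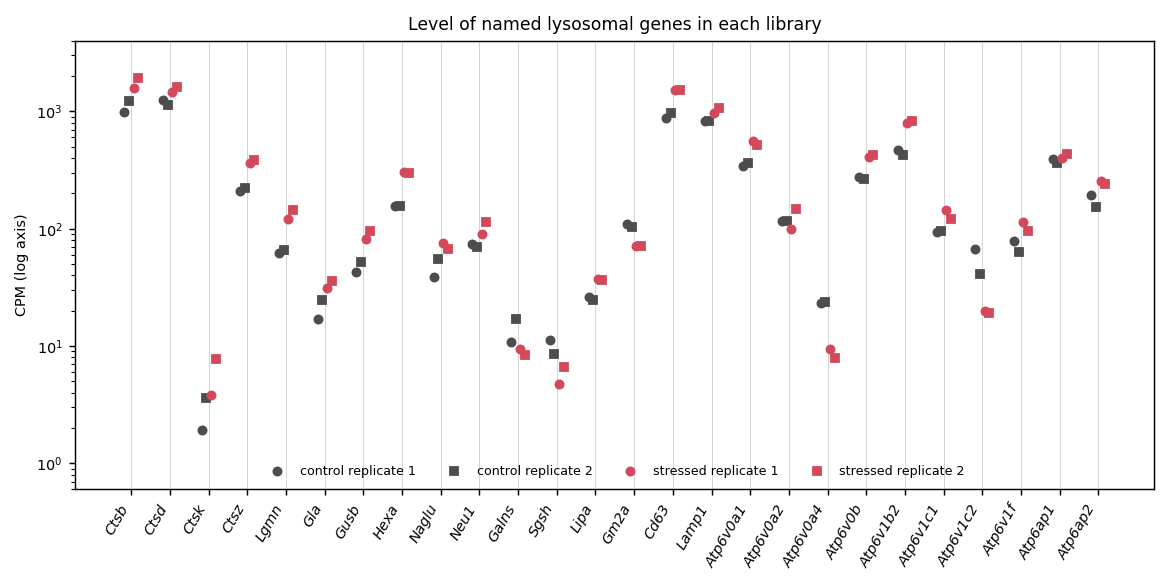
CPM on a log axis in each of the 4 libraries for 26 lysosomal genes: those called by DESeq2, those with separated groups and an absolute log2 fold change of at least 0.5, the most abundant of each class and the a and C subunit isoforms (circles, replicate 1; squares, replicate 2; grey, control; red, stressed). Hexa, Ctsz and Atp6v1b2 show tight pairs that are apart between groups, while Ctsk, Sgsh and Galns are low and scattered.

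Of the 6 membrane proteins, 4 were higher and 2 lower, with a median of 0.25. In 3 the stressed libraries lay above both controls, against 21.8% of all genes tested. Cd63, a tetraspanin of late endosomes, lysosomes and melanosomes (chr10:128908919-128912816), had the highest level of the 55 genes per kilobase. It reached 858 and 943 CPM per kilobase in control cells and 1490 and 1476 in stressed cells. In CPM it was at 885 and 973 in control cells and 1536 and 1522 in stressed cells. The replicates of Cd63 were close in both groups. Cd63 rose by 0.72 ± 0.21 (edgeR adjusted p 0.252; DESeq2 adjusted p 0.00383), and DESeq2 still called it with either control left out (adjusted p 0.0249 without replicate 1 and 0.00213 without replicate 2). Lamp1, the main glycoprotein of the lysosomal membrane, stood at 826 and 833 CPM in control cells and 964 and 1074 CPM in stressed cells. The stressed values of Lamp1 were above both controls, but its log2 fold change of 0.30 ± 0.20 passed neither test (DESeq2 adjusted p 0.54).

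Lamp2, the close relative of Lamp1, overlapped between the groups at 727 and 663 CPM in control cells and 714 and 651 CPM in stressed cells (-0.03 ± 0.20). Mcoln1, the calcium channel TRPML1, was at 137 and 197 CPM in control cells and 222 and 222 CPM in stressed cells. The stressed replicates of Mcoln1 were alike and its controls were not, and the log2 fold change of 0.41 ± 0.23 passed neither test. The cholesterol exporter Npc1 (0.20 ± 0.19) and Scarb2, the receptor that delivers glucocerebrosidase (-0.19 ± 0.24), overlapped between the groups. Per kilobase, Cd63 was followed by Ctsd, at 495 and 447 in control cells and 577 and 643 in stressed cells, and by Lamp1, at 366 and 370 in control cells and 427 and 476 in stressed cells. Ctsb was next by mean, at 208 and 261 in control cells and 336 and 409 in stressed cells. The order of Cd63, Ctsd, Lamp1 and Ctsb was the same in each of the 4 libraries, but in control library 1 Psap (304) and Ctsl (265) lay above Ctsb.

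Of the 18 V-ATPase genes, 16 were higher and 2 lower, with a median of 0.22. In 12 both stressed libraries lay above both controls, against 21.8% of all genes tested, and in 2 below, against 22.9%. By sector, 6 of 7 V0 subunits, 8 of 9 V1 subunits and both accessory proteins had a higher fitted level. The V-ATPase median depended on single libraries, at 0.40 when control replicate 1 was left out and 0.13 when control replicate 2 was. Leaving out stressed replicate 1 gave 0.34, and leaving out stressed replicate 2 gave 0.17. Atp6v1b2, the B subunit of the ATP-splitting hexamer (chr8:69088646-69113711), was at 466 and 429 CPM in control cells and 802 and 834 CPM in stressed cells. It rose 1.83-fold by mean CPM, by 0.87 ± 0.20 on the log2 scale (edgeR adjusted p 0.174; DESeq2 adjusted p 0.000286). Its partner in the hexamer, the A subunit Atp6v1a, was at 190 and 170 CPM in control cells and 196 and 224 CPM in stressed cells, a smaller log2 fold change of 0.22 ± 0.18 that passed neither test; whether A and B differ in this was not tested.

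In the V0 sector, Atp6v0b, a proteolipid of the rotating ring (chr4:117884326-117887333, minus strand), was at 276 and 266 CPM in control cells and 411 and 425 CPM in stressed cells. It rose by 0.62 ± 0.18 (edgeR adjusted p 0.249; DESeq2 adjusted p 0.026). Atp6v0a1, the a1 isoform of the large subunit that steers the pump to its membrane (chr11:101009452-101063719), was at 345 and 362 CPM in control cells and 558 and 520 CPM in stressed cells. It rose by 0.61 ± 0.19 (edgeR adjusted p 0.266; DESeq2 adjusted p 0.0311). In Atp6v0b and Atp6v0a1 every stressed value was above every control value. The DESeq2 call of Atp6v0b was lost with either control left out (adjusted p 0.0595 without replicate 1 and 0.0799 without replicate 2), and that of Atp6v0a1 was lost without control replicate 1 (0.119). An opposite-strand gene, Gm12841, shares 11.9% of the exon length of Atp6v0b. The main ring proteolipid Atp6v0c (0.22 ± 0.24), which shares 27.4% of its exon length with Gm43796, overlapped between groups, while the d1 subunit Atp6v0d1 (0.37 ± 0.20) and the small subunit Atp6v0e (0.14 ± 0.18) were higher in each stressed library than in either control.

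Among V1 subunits, Atp6v1f of the central stalk was at 78.8 and 63.8 CPM in control cells and 114 and 95.9 CPM in stressed cells (0.56 ± 0.20). The peripheral stalk subunit Atp6v1e1 (0.42 ± 0.21) and its partner Atp6v1g1 (0.17 ± 0.18) were likewise higher in both stressed libraries, and none of these passed an adjusted test. The regulatory subunit Atp6v1h (0.11 ± 0.19) and the rotor subunit Atp6v1d (0.08 ± 0.23) overlapped between the groups. Of the accessory proteins, Atp6ap2, also known as the prorenin receptor, was at 192 and 154 CPM in control cells and 255 and 242 CPM in stressed cells (0.52 ± 0.20). Atp6ap1, the more abundant of the pair per kilobase in every library, was at 390 and 365 CPM in control cells and 401 and 430 CPM in stressed cells (0.14 ± 0.19).

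Both V-ATPase genes that fell encode isoforms of subunits with a widespread counterpart. Atp6v0a4 (chr6:38048483-38124586, minus strand), the a4 isoform known from acid-secreting cells of the kidney, was at 23.1 and 23.6 CPM in control cells and 9.48 and 7.91 CPM in stressed cells. It was 2.69-fold lower by mean CPM and fell by 1.42 on the log2 scale (SE 0.29; edgeR adjusted p 0.149; DESeq2 adjusted p 0.0102). Atp6v1c2 (chr12:17284721-17329359, minus strand), the C2 isoform of the subunit that joins V1 to V0, was at 67.8 and 40.9 CPM in control cells and 20.0 and 19.2 CPM in stressed cells. It fell by 1.47 on the log2 scale (SE 0.30; edgeR adjusted p 0.151; DESeq2 adjusted p 0.00228). The stressed replicates were close for both genes, and the controls were close for Atp6v0a4 but not for Atp6v1c2. The DESeq2 call of Atp6v0a4 was lost with either control left out (adjusted p 0.201 without replicate 1 and 0.173 without replicate 2), and that of Atp6v1c2 without control replicate 1 (0.208). Exon length shared with other genes was 6.46% for Atp6v0a4 and 2.42% for Atp6v1c2.

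The counterparts lay on the other side. Atp6v1c1, the C1 isoform, was at 92.9 and 95.1 CPM in control cells and 143 and 122 CPM in stressed cells (0.49 ± 0.18, DESeq2 adjusted p 0.273). Per kilobase, Atp6v1c2 made up 42.5% and 30.4% of the C subunit transcripts in control cells and 12.4% and 13.8% in stressed cells, while the sum of both isoforms was 77.1 and 65.1 CPM per kilobase in control cells and 77.9 and 67.2 in stressed cells. The C2 share was thus lower in each stressed library, while the totals overlapped between the groups. For the a subunit, Atp6v0a4 made up 5.54% and 5.28% in control cells and 1.61% and 1.26% in stressed cells. Atp6v0a1 made up 62.6% and 61.5% of it in control cells and 71.8% and 62.9% in stressed cells. The a2 isoform Atp6v0a2 was at 115 and 116 CPM in control cells and 99.6 and 148 CPM in stressed cells (0.10 ± 0.23), and the sign of its fold change turned without stressed replicate 2 (-0.20). The a3 isoform gene Tcirg1, not one of the 55, was at 43.0 and 56.2 CPM in control cells and 74.6 and 104 CPM in stressed cells (0.85 ± 0.24, DESeq2 adjusted p 0.0737).

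Keratinocyte markers were lower in the same libraries as both of these isoforms. The stressed-over-control ratio was 0.431 for the summed keratinocyte markers, 0.372 for Atp6v0a4 and 0.36 for Atp6v1c2. Between the controls, the keratinocyte sum was higher in replicate 1 (23270 CPM) than in replicate 2 (14690 CPM), as was Atp6v1c2 (67.8 and 40.9 CPM), while Atp6v0a4 was level (23.1 and 23.6 CPM). The part of keratinocyte RNA in these falls was not tested.

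**Figure D3:**
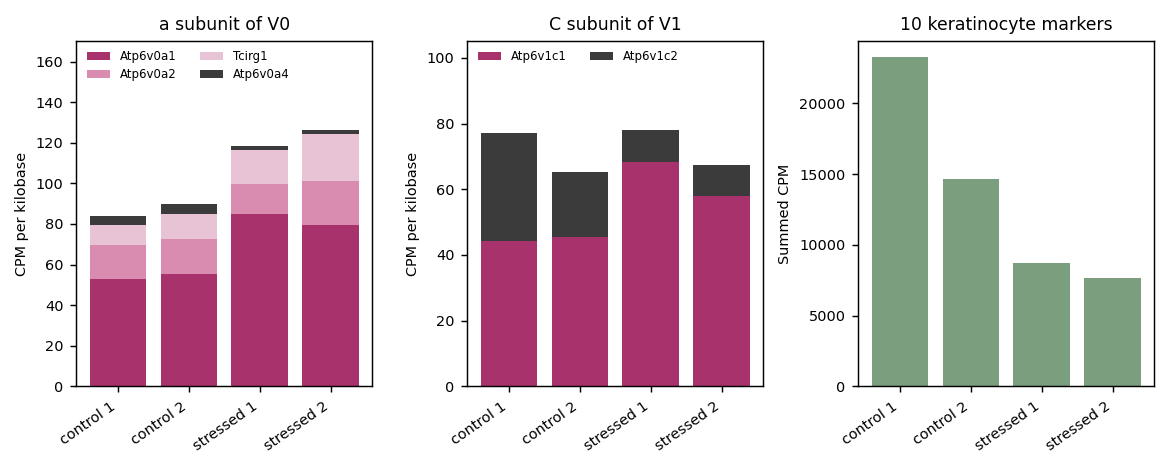
Stacked bars give the level per kilobase (CPM per kilobase) of the isoforms of the V-ATPase a subunit and C subunit in each library, beside the summed CPM of 10 keratinocyte markers. Atp6v1c2 makes up 42.5% and 30.4% of the C subunit in the controls against 12.4% and 13.8% in stressed cells, with a similar total, and the keratinocyte sum is lower in both stressed libraries.

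Macrophages and Langerhans cells are rich in cathepsins, so their markers were looked at beside the proteases that rose. The 12 markers summed to 10.1 and 45.6 CPM in control cells and 6.10 and 8.91 CPM in stressed cells. Cd74 made up most of that sum, at 6.64 and 35.3 CPM in control cells and 4.98 and 5.91 CPM in stressed cells. Of the 12, 6 had 0 counts in both stressed libraries (Lyz2, Adgre1, Csf1r, Aif1, C1qa and Mrc1) and 6 had counts in at least 1 of them. Itgam was at 0.107 and 0.593 CPM in control cells and 0.563 and 0.727 CPM in stressed cells, Cd207 had 0 and 17 counts in stressed cells, Fcer1g 0 and 7, Ptprc 6 and 0 and Tyrobp 0 and 1. The part of RNA from these cells in the levels of the proteases was not tested. Fibroblast markers summed to at most 25 CPM and endothelial markers to at most 3 CPM in a library.

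By class, hydrolases, V-ATPase genes and membrane proteins had medians of 0.29, 0.22 and 0.25, and the differences between classes were not tested. The spread within the classes was larger than the gaps between the medians: hydrolases ran from -0.79 for Sgsh to 1.06 for Lgmn, membrane proteins from -0.19 for Scarb2 to 0.72 for Cd63 and V-ATPase genes from -1.47 for Atp6v1c2 to 0.87 for Atp6v1b2. Summed levels were 1.31 times the control for hydrolases, 1.30 times for membrane proteins and 1.346 times for V-ATPase genes, and 0.938 times for activators and carriers. The median SE of the 55 was 0.20, which describes single genes and is not the error of a class median.

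**Figure D4:**
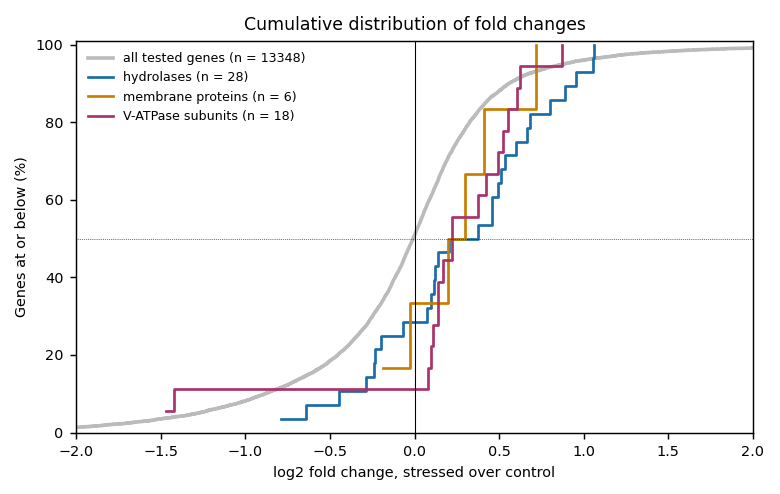
Cumulative share of genes (vertical axis, percent) at or below each log2 fold change (horizontal axis) for all 13348 tested genes and for hydrolases, membrane proteins and V-ATPase genes. The 3 class curves reach 50% at 0.20 to 0.22, to the right of the curve of all genes, and the V-ATPase curve starts with Atp6v1c2 at -1.47 and Atp6v0a4 at -1.42.

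Other genes of lysosomal biology gave a mixed picture. Of 25 tested lysosomal enzymes and carriers outside the 55, 15 were higher and 10 lower, with a median of 0.04, close to that of all genes. DESeq2 called 1 of the 25 as higher, beside 1.73% of all genes tested. That gene, Man2b1, a lysosomal alpha-mannosidase, was at 104 and 90.3 CPM in control cells and 150 and 188 CPM in stressed cells. Man2b1 rose by 0.80 ± 0.20 (edgeR adjusted p 0.205, DESeq2 adjusted p 0.0229). Of 10 genes for the mannose phosphate tag that sends hydrolases to the lysosome, 9 were higher and 1 lower, with a median of 0.12. Igf2r, the large receptor for that tag, was at 75.8 and 85.0 CPM in control cells and 155 and 170 CPM in stressed cells. Igf2r rose by 1.01 ± 0.18 (edgeR adjusted p 0.128, DESeq2 adjusted p 0.000428). M6pr, the small receptor, was higher by 0.19 ± 0.18 and passed neither test.

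Of 18 tested regulators of lysosomal genes and of the nutrient sensor mTORC1 on the lysosome, 13 were higher and 5 lower, with a median of 0.18. Rragd, a Rag GTPase that docks mTORC1 on the lysosome, was at 30.5 and 27.1 CPM in control cells and 78.0 and 64.4 CPM in stressed cells. Rragd rose by 1.30 ± 0.21 (edgeR adjusted p 0.122, DESeq2 adjusted p 0.000265). Among the factors that bind the CLEAR motif, Tfeb was at 155 and 136 CPM in control cells and 186 and 204 CPM in stressed cells (0.42 ± 0.18, DESeq2 adjusted p 0.355). Mitf overlapped between the groups at 452 and 292 CPM in control cells and 452 and 407 CPM in stressed cells (0.21 ± 0.26), as did Tfe3 at 69.4 and 71.3 CPM and 68.1 and 73.8 CPM (0.01 ± 0.17). Tfec had 0 counts in all 4 libraries. These mRNA levels do not measure where the proteins are in the cell.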

How the data were processed

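The authors deposited 1 table of whole-number read counts per gene for each of the 4 libraries (Smart-Seq V4, per the labels' protocols). Per the file headers, the counts were made with featureCounts 1.6.1 over exons summed by gene name on mm10, with a minimum mapping quality of 30 and no strand or paired-end option. The submitters' processing notes also list Trim Galore 0.4.1, STAR 2.5.3 and DESeq2 1.22.2. The headers of stressed replicates 1 and 2 carry the numbers 2 and 3. Here genes were filtered with filterByExpr, scaled by TMM and fitted in R 4.3.3 with edgeR 4.0.16 (quasi-likelihood F-test, group as the only term), with DESeq2 1.42.0 and voom of limma 3.58.1 as alternatives. CPM uses TMM-scaled totals. Levels per kilobase divide by the exon length in the files. Exons shared with another gene occur in 18 of the 55 genes. Replicates differed by more than sampling noise (chi-square per degree of freedom 53.99 between controls and 17.99 between stressed libraries).

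Values in every library are given for members called by edgeR or DESeq2, members with separated groups and an absolute log2 fold change of at least 0.5, the 2 most abundant members of each class and the a and C subunit isoforms. Some library values of other members, chosen after their values were seen, are added. From the other lists, called genes and Mitf, Tfeb, Tfe3, Tfec and Tcirg1 are named, and Ctss and M6pr were added after their values were seen. Outside that rule, the uncalled genes Atp6v0d2, Cd68, Atp6v0e2, Atp6v1b1, Optn, Atg5, Map1lc3a and Sqstm1 are named under the other observations. The members, lists and tests were chosen with earlier results of these data known. Alternatives were 2 other scalings, 2 other filters, a replicate block and each library left out.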

Additional observations from a re-analysis of the deposited data

How the results depend on the processing

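With 2 libraries a group the calls depended on the tool and on single libraries. Of all genes tested, edgeR called 0, DESeq2 called 587, and edgeR called 760 with no low-count filter, between 0 and 739 with 1 library left out and 0 under the other alternatives; DESeq2 with 1 library left out called between 44 and 800. Of the 55 lysosomal genes, edgeR called 0, DESeq2 10, edgeR without the filter 7 (5 higher, 2 lower) and edgeR with 1 library left out between 0 and 5; DESeq2 with 1 library left out called between 0 and 9. With limma-voom, DESeq2 size factors, upper-quartile scaling or a filter of 5 CPM in 2 libraries, 0 members were called. The cause of these differences was not tested.

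The median log2 fold change of hydrolases was 0.20 with the filter of 5 CPM, which drops Ctsk, and ranged from 0.20 to 0.37 with 1 library left out. For membrane proteins the range was 0.18 to 0.29 and for V-ATPase genes 0.13 to 0.40. Among 285 values of the 26 named members under the alternatives, 257 kept their direction and side of the threshold, 27 passed it only under the alternative and 1 reversed, Atp6v0a2 (-0.20 without stressed replicate 2, within a range of -0.20 to 0.36 with 1 library left out). Of the 29 members outside that set, 14 changed sign with 1 library left out. Most named members were chosen for calls or separated groups in these same data, which leaves them little room to change sign. These counts therefore do not compare the firmness of named and other members. With all libraries 41 of the 55 were higher, and between 37 and 44 with 1 left out. A left-out library leaves 1 library in its group, assumed to vary like the other group.

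The replicate block gave 0 called genes and 0 called members, and medians of 0.29 for hydrolases, 0.24 for membrane proteins and 0.22 for V-ATPase genes. The labels do not say that equal numbers mark paired libraries, and the correlation of their deviations was 0.172 over only 2 pairs, so the numbers were not taken as a pairing.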

Other observations

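Further genes of the acidic compartment lie outside the 55. Atp6v0d2, the d2 isoform known from osteoclasts, was at 2.25 and 5 CPM in control libraries 1 and 2 and at 11.9 and 9.28 CPM in stressed libraries 1 and 2, and per kilobase made up 1.64% and 4.58% of the d subunit in control cells and 6.87% and 5.90% in stressed cells. Cd68, a lysosomal glycoprotein abundant in macrophages, was at 1.82 and 2.88 CPM in control cells and 5.35 and 8.73 CPM in stressed cells (DESeq2 adjusted p 0.249). Atp6v0e2 was at 46.4 and 38.3 CPM in control cells and 24.6 and 26.5 CPM in stressed cells, with the share of the e subunit per kilobase at 30.8% and 30.5% in control cells and 19.1% and 19.9% in stressed cells (DESeq2 adjusted p 0.199). Atp6v1b1 followed single libraries and not the groups, at 8.68 and 0.169 CPM in control cells and 36.2 and 1.18 CPM in stressed cells.

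Of 18 autophagy genes, 13 were higher and 5 lower, at a median log2 fold change of 0.14. DESeq2 called 0, edgeR called 0, and 1 was higher and 2 were lower at an unadjusted edgeR p below 0.05, beside 5.17% higher and 7.6% lower of all genes tested, so these counts are near the background. The 3 were the selective autophagy receptor Optn, at 45.7 and 35.8 CPM in control cells and 68.7 and 63.7 CPM in stressed cells, and the conjugation genes Atg5, at 73.2 and 58.5 CPM and 39.2 and 40.8 CPM, and Map1lc3a, at 108 and 93.0 CPM and 69.3 and 62.9 CPM. The receptor gene Sqstm1 was the most abundant of the list per kilobase and overlapped between the groups, at 988 and 1635 CPM in control cells and 1578 and 1921 CPM in stressed cells.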
